A study of Homo sapiens with 6 samples.

Results

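RNA helicases of the DEAD-box and DEAH-box families carry gene symbols that begin with DDX or DHX followed by a number. All symbols of this form were taken from the RNA-seq table of cells labelled LoVo, which gave 55 genes of 19223 symbols and 120 transcript entries of 45006. Where a symbol had several transcripts, the one of highest mean value was used, with all 6 libraries counted alike, so that group membership played no part in the choice. Of the 55 members, 39 were DDX and 16 were DHX genes.

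LoVo cells are an established human line that was derived from a colorectal adenocarcinoma. The 3 Control libraries came from cells that received vehicle, and the 3 DCC-2036 libraries from cells that received 2.5 μM DCC-2036, also called rebastinib, an inhibitor of tyrosine kinases. The sample labels give 48 h for both groups, whereas the study's text gives a shorter time for the RNA-seq. The comparison asks which transcripts differ between cells with and without the inhibitor. The labels do not say whether the 3 libraries of a group came from separate cultures, so the p-values measure only the spread between these libraries, which may be technical.

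The unit throughout is a signal per transcript that the authors had adjusted between libraries before deposit. Reads could not be recovered from it, and the depth behind each library is therefore unknown. The column totals were 38997229, 39956227 and 40587145 in Control against 43279603, 45957597 and 48023306 in DCC-2036. Differences are given as log2 fold changes of value + 1, DCC-2036 minus Control, with the standard error (SE) of the limma fit over all genes. On this scale the change of a gene with low values is understated. A gene was tested where at least 3 libraries had a value of at least 10, and it was called at an adjusted p under 0.01 over all genes tested.

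DEAD-box and DEAH-box proteins use ATP to unwind short RNA duplexes or to strip proteins from RNA. They act at nearly every step in the life of an RNA, from transcription and splicing to export, translation and decay, and many are needed to build ribosomes in the nucleolus. A smaller group binds viral RNA and takes part in the interferon response, and a few act in germ cells. Dividing tumour cells, those of the colon among them, make many ribosomes and rely on the nucleolar members.

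The label of the cells was compared with marker genes. Of 10 markers of colorectal epithelium, 5 passed the filter on low values, namely EPCAM, KRT8, KRT18, KRT20 and CDX2. CDX1 and LGR5 were listed at 0 in all 6 libraries, and VIL1, CDH17 and CEACAM5 did not exceed 5.1 in any library. The identity of the cells is taken from the labels, and with 5 of the 10 markers at or near 0 these values leave it open. The summed level of the 10 genes was 79493, 83736 and 89168 in Control against 121182, 136851 and 159437 in DCC-2036, and KRT8 was the most abundant. KRT8 rose by 0.84 ± 0.14 (SE) on the log2 scale (adjusted p = 0.00287), and KRT20 fell by 1.15 ± 0.21 (adjusted p = 0.00427). KRT8 was not called without Control replicate 1, 2 or 3 or DCC-2036 replicate 2, with adjusted p up to 0.0146, and KRT20 not without Control replicate 1 or 3, with adjusted p up to 0.0176. Of 5 markers of immune cells, PTPRC was at 0 in every library and only CD68 was tested, with a log2 fold change of -0.04. The summed immune markers lay between 226.4 and 269.0 in Control and between 220.0 and 307.2 in DCC-2036. Of 5 fibroblast markers, COL1A1 and COL3A1 were tested and neither was called. COL1A1 was the most abundant, and the fibroblast sum was 365.1 to 427.5 in Control and 448.5 to 541.3 in DCC-2036. The part of these markers in the results below was not tested.

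Of the 55 helicases, 50 were tested. With DCC-2036, 7 were higher and 11 were lower, which is 36% of the tested members. Over all 12725 genes tested, 41.9% were called, 19.2% higher and 22.7% lower, so that the members were called about as often as other genes. The higher members were DDX24, DHX58, DHX38, DDX47, DDX21, DDX54 and DHX33. The lower members were DDX60, DHX34, DDX56, DDX17, DHX16, DHX32, DDX46, DDX60L, DDX11, DDX18 and DDX39A. DHX58 passed the filter only through its DCC-2036 values and could only be higher, and without it 6 were higher and 11 lower of 49, 34.7%. The median log2 fold change of the tested members was -0.24, and over all genes it was -0.09. In 38 of the 50 members, 76%, the DCC-2036 and Control ranges were apart, 14 above and 24 below Control. DHX58, which the filter allowed only to be higher, is among those above. The ranges were apart in 71.1% of all genes tested. Without DHX58, 12 of 34 DDX and 5 of 15 DHX genes were called, 35.3 and 33.3%.

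The summed members took 0.847, 0.856 and 0.832% of the summed signal of all kept transcripts in Control and 0.775, 0.732 and 0.702% in DCC-2036. The 3 DCC-2036 shares were all below the Control shares (exact permutation test, two-sided, p = 0.1, the smallest p that 3 against 3 allows). The sum of the members itself overlapped, with 138371, 143169 and 141328 in Control against 139196, 139819 and 140854 in DCC-2036. The lower shares thus stood beside larger column totals in DCC-2036. In RNA from a whole culture, a lower level per cell and fewer cells with the transcript cannot be told apart.

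How the columns were scaled bore on these counts. With libraries scaled to equal totals, the median over all genes moved from -0.09 to -0.28 and that of the members to -0.43, and 4 members were higher and 13 lower. The higher share of the called members, DHX58 included, was then 23.5% in place of 38.9%. Over all genes the higher share went from 45.8 to 33.6%. Scaling a library moves the log2 fold changes of all genes by nearly the same amount, so that nothing about the members is drawn from this shift. Scaling by median of ratios moved the values the other way, with a median of -0.01 over all genes and -0.16 over the members, and with 9 members higher and 11 lower. Upper quartile scaling gave 7 and 11, as without rescaling. Relative to the median of all genes, the members stood at -0.15 under each of these, since a shift common to all genes leaves this difference in place. Leaving out Control replicate 1, 2 or 3 or DCC-2036 replicate 2 left 2 members higher each time and 7, 6, 5 and 6 lower, while the share called over all genes fell to 21.1, 20, 20 and 21%. DDX24, DDX46, DDX56, DDX60, DHX34 and DHX38 kept both call and direction under all 16 alternatives, and the other 12 lost the call under at least 1. Of the 18 called members, 0 changed sign, though DHX58 was tested under only 12 of the 16 alternatives and the filter fixed its direction. Without DCC-2036 replicate 1, DDX23, DDX3X, DDX41, DDX55, DHX35 and DHX37 were called in addition, with adjusted p from 0.00211 to 0.00912. In that fit 44.9% of the members and 49.3% of all genes were called.

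**Figure D1:**
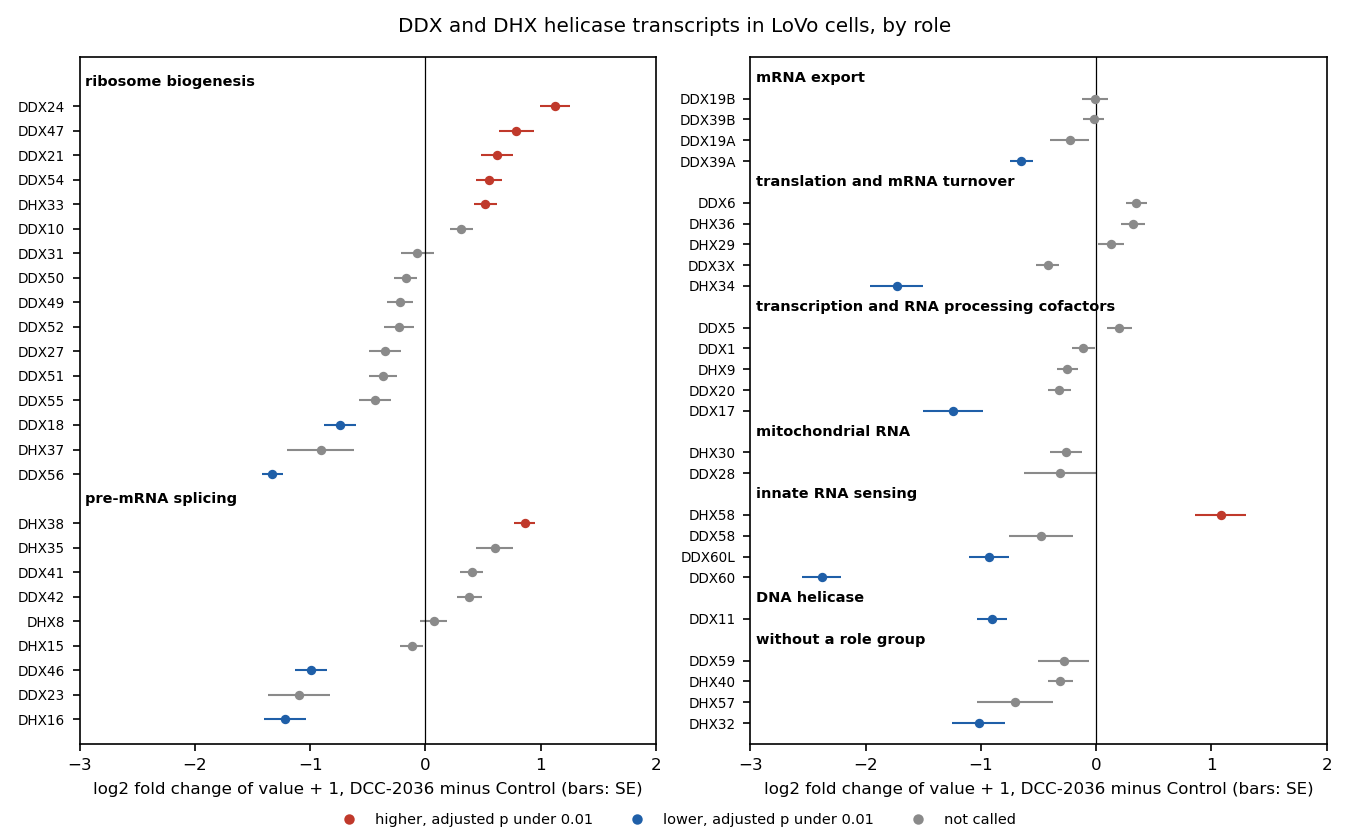
Log2 fold change of value + 1 (x axis, DCC-2036 minus Control, n = 3 libraries per group) for the 50 tested helicases, grouped by role, with bars for the SE of the limma fit. Red points are the 7 members called higher and blue points the 11 called lower. The values run from -2.38 for DDX60 to 1.12 for DDX24, and 5 of the 7 red points lie in the ribosome biogenesis group. That group holds 16 of the 50 members, with 31.2% called higher and 12.5% lower, against 19.2 and 22.7% over all genes tested. DHX58, also red, could only be higher.

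The ribosome biogenesis group held 16 members, all tested, of which 5 were higher, 2 were lower and 9 were not called. The 43.8% called are close to the 41.9% over all genes tested, of which 19.2% were higher and 22.7% lower. Its median log2 fold change was -0.20. The summed signal of the group was 40938, 42877 and 43048 in Control against 49381, 52359 and 53965 in DCC-2036, without overlap, and DDX21 was the most abundant of the group in this sum. Thus the sum was higher while the median member was lower. Abundant members weigh most in such a sum, and the mean of DDX21 went from 9160 to 14208 and that of DDX24 from 4596 to 10036. Of the 16 members, 6 lay above Control without overlap and 9 below, so the sum does not describe a rise of the whole group. The summed signal of all kept transcripts was larger with DCC-2036 too, at 17959762 to 20078388 beside 16342648 to 16982729 for Control.

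DDX21 is a nucleolar helicase that joins rRNA transcription to rRNA processing, and it lies at chr10:68956128-68985073 on the plus strand (GENCODE 29, GRCh38). Its values were 9084, 9510 and 8885 in Control against 12193, 13858 and 16572 in DCC-2036. All 3 DCC-2036 libraries were above all 3 Control libraries, and DCC-2036 replicate 3 was the highest. DDX21 thus rose by 0.62 ± 0.14 (SE) on the log2 scale (adjusted p = 0.00803). The call was lost with libraries scaled to equal totals, without a filter on low values and with a replicate block. Without Control replicate 1, 2 or 3 or DCC-2036 replicate 2 the adjusted p was 0.0307, 0.0269, 0.0333 and 0.0281.

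The paralog DDX50 lies on the same strand at chr10:68901278-68946847, 9280 bases from DDX21. Its values were 504.0, 540.2 and 471.1 in Control against 434.5, 441.6 and 466.6 in DCC-2036. The groups did not overlap, yet DCC-2036 replicate 3 and Control replicate 3 were only a few units apart. Its log2 fold change of -0.17 ± 0.10 was not called (adjusted p = 0.179). Thus of these neighbouring genes 1 rose, and the other showed no difference beyond the limit of the test.

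DDX24, a nucleolar helicase of large ribosomal subunit assembly, lies at chr14:94048291-94081245 on the minus strand. It stood at 4368, 4522 and 4899 in Control against 8617, 10183 and 11310 in DCC-2036. Every DCC-2036 value was well above the highest Control value. The log2 fold change of 1.12 ± 0.13 (adjusted p = 0.000913) was the largest among the tested members, although DHX58 was above it with a pseudocount of 0.1, at 1.16, and without Control replicate 1, at 1.10. Exons of OTUB2 on the opposite strand share 640 bases with DDX24, and the library kit named in the labels does not mark strand. OTUB2 itself was at a mean of 236.8 ± 8.3 (SD, n = 3) in Control and 203.8 ± 72.4 in DCC-2036.

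DDX47, which acts in early processing of small-subunit rRNA, lies at chr12:12813316-12829981 on the plus strand. Its values were 1959, 2053 and 2145 in Control against 3013, 3454 and 4290 in DCC-2036. The groups were apart, and the DCC-2036 values were spread more widely. DDX47 rose by 0.79 ± 0.15 on the log2 scale (adjusted p = 0.00465). Its call was lost without a filter on low values and with a replicate block. Without Control replicate 1, 2 or 3 or DCC-2036 replicate 2 the adjusted p was 0.0211, 0.02, 0.0174 and 0.0178. Exons annotated to APOLD1 share 1841 bases with DDX47 on the same strand, and reads in them could have been given to either gene. APOLD1 itself went the other way, with 146.9, 99.7 and 122.4 in Control against 15.7, 48.4 and 47.6 in DCC-2036, and was not called (adjusted p = 0.011). The remaining higher members of the group were DDX54, with 0.55 ± 0.11, and DHX33, a factor of rRNA transcription, with 0.52 ± 0.10. Both lost the call with libraries scaled to equal totals, without a filter on low values and with a replicate block. Both also lost it without each of those 4 libraries, with adjusted p from 0.0195 to 0.0244 for DHX33 and from 0.0226 to 0.0278 for DDX54. DDX54 also lost the call without DCC-2036 replicate 1, at 0.0104. CFAP73, whose exons share 501 bases with DDX54 on the opposite strand, was also above Control without overlap, at 0.39 on the log2 scale, and was not called (adjusted p = 0.0235).

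DDX56, another helicase of large subunit assembly, lies at chr7:44565417-44575051 on the minus strand. It went the other way, with 3070, 3312 and 3341 in Control against 1322, 1276 and 1275 in DCC-2036. The DCC-2036 libraries were close to each other and all under 1323, far below Control. DDX56 fell by 1.33 ± 0.09 on the log2 scale (adjusted p = 0.000257). DDX18 also fell, by 0.74 ± 0.14 on the log2 scale (adjusted p = 0.00472). Its call was lost without Control replicate 1, 2 or 3 or DCC-2036 replicate 2 (adjusted p = 0.0186, 0.0224, 0.0193 and 0.0209). The log2 fold change of DDX18 in those fits ran from -0.76 to -0.72. The DDX18 call was also lost without a filter on low values and with a replicate block. The 9 members of the group that were not called were DDX10, DDX27, DDX31, DDX49, DDX50, DDX51, DDX52, DDX55 and DHX37, and their log2 fold changes ran from -0.91 for DHX37 to 0.31 for DDX10. DHX37 frees a small nucleolar RNA from the rRNA precursor, and its DCC-2036 values of 2478, 1779 and 1092 were spread too widely for a call (adjusted p = 0.0304). All were below the Control values of 3011, 3182 and 3370.

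The pre-mRNA splicing group held 9 members, of which 1 was higher, 2 were lower and 6 were not called, with a median of 0.07. Its 33.3% called stand beside 41.9% over all genes tested, 19.2% higher and 22.7% lower. In the order in which they act on the spliceosome, DDX46 helps the branch site to be bound, DDX23 helps to exchange the RNA at the start of the intron, DHX16 prepares the first catalytic step and DHX38 the second, DHX8 releases the mRNA, and DHX15 takes the complex apart.

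DDX46 fell by 0.99 ± 0.14 on the log2 scale (adjusted p = 0.00154). DDX23 stood at 3485, 3502 and 3744 in Control against 2415, 1740 and 1104 in DCC-2036, without overlap, and its log2 fold change of -1.10 ± 0.27 just missed the limit (adjusted p = 0.0133). It was called without DCC-2036 replicate 1 or 3, at 0.00211 and 0.00567. DHX16, at chr6:30653119-30673037 on the minus strand, had values of 2341, 2364 and 2462 in Control against 1280, 1066 and 794.9 in DCC-2036. Each DCC-2036 value was below each Control value. DHX16 fell by 1.22 ± 0.18 on the log2 scale (adjusted p = 0.002), and without Control replicate 3 the adjusted p was 0.0109.

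DHX38, at chr16:72093562-72112912 on the plus strand, had values of 2714, 2776 and 2794 in Control against 4783, 5176 and 5140 in DCC-2036. Both groups were tight, and they were far apart. DHX38 rose by 0.86 ± 0.09 on the log2 scale (adjusted p = 0.000698). TXNL4B, whose exons share 343 bases with DHX38 on the opposite strand, also rose, with a log2 fold change of 1.04 ± 0.14 (adjusted p = 0.00131), and reads from the shared bases cannot be told apart. The neighbours in the order of splicing thus did not move as a block, with DHX16 lower and DHX38 higher. DHX8 had a log2 fold change of 0.07 and DHX15 of -0.12, neither called. DHX35, DDX41 and DDX42, which had log2 fold changes of 0.60, 0.40 and 0.38, were each without overlap and above Control but were not called (adjusted p = 0.0185, 0.0135 and 0.0254).

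Of the 4 helicases of mRNA export, DDX39A was called, 25% against 41.9% over all genes tested. It lies on chromosome 19, and it fell from 3677 ± 139.7 (SD, n = 3) in Control to 2339 ± 141.5 in DCC-2036, a log2 fold change of -0.65 ± 0.10 (adjusted p = 0.00214). Without Control replicate 2 or 3 or DCC-2036 replicate 2 the adjusted p was 0.0141, 0.0126 and 0.013. The DDX39A call was also lost with a replicate block. Its paralog DDX39B, the helicase that loads export factors on mRNA, had a log2 fold change of -0.02 with overlapping groups. DDX19A and DDX19B, which release proteins from mRNA at the nuclear pore, had -0.23 and -0.01, again with overlap. These last 2 genes are near-identical neighbours on chromosome 16, and how reads were divided between them is not given in the sources used here.

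In translation and mRNA turnover, 5 of 6 members were tested and 1 was called, 20% against 41.9% over all genes tested. DHX34, a helicase of nonsense-mediated decay, lies at chr19:47349281-47382704 on the plus strand. Its values were 1546, 1621 and 1590 in Control against 647.9, 496.7 and 336.5 in DCC-2036. All DCC-2036 values were below all Control values, at a mean of 31.1% of the Control mean. DHX34 fell by 1.73 ± 0.23 on the log2 scale (adjusted p = 0.00141). DDX3X, a translation helicase and the most abundant of the group in summed signal, had -0.42 ± 0.10 without overlap but missed the limit (adjusted p = 0.0123), and it was called with libraries scaled to equal totals and, at 0.00677, without DCC-2036 replicate 1. DDX6, which holds repressed mRNA, DHX36, which unwinds G-quadruplexes, and DHX29, which scans structured leaders, had 0.35, 0.32 and 0.13, and none was called. DDX3Y did not pass the filter on low values.

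Of 5 cofactors of transcription and RNA processing, DDX17 was called, 20% beside 41.9% over all genes. DDX5 and DDX17 are close paralogs that act with nuclear receptors, with the microRNA processor and in splicing. DDX5, at chr17:64499616-64508199 on the minus strand, had the highest mean level of all members over the 6 libraries, although DDX21 was slightly above it in DCC-2036 replicate 3. Its values were 12243, 13327 and 12978 in Control against 13691, 14224 and 16529 in DCC-2036. The groups did not overlap, though the gap between them was small beside their spread. A log2 fold change of 0.20 ± 0.11 was not called (adjusted p = 0.162).

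DDX17, at chr22:38483440-38507660 on the minus strand, stood at 4334, 4254 and 4077 in Control against 2565, 1805 and 1227 in DCC-2036. Every DCC-2036 value was below Control, and replicate 3 was below the others. DDX17 fell by 1.24 ± 0.26 on the log2 scale (adjusted p = 0.00669). Without Control replicate 1, 2 or 3 or DCC-2036 replicate 2 the adjusted p was 0.0259, 0.024, 0.0236 and 0.0226. The call was also lost without a filter on low values and with a replicate block. DHX9, DDX1 and DDX20 had log2 fold changes of -0.25, -0.11 and -0.32 and were not called. Neither of the 2 members tied to mitochondrial RNA was called by limma, nor was either at an unadjusted p under 0.05. DHX30 had -0.26 and DDX28 had -0.31, and in DDX28 the DCC-2036 values of 212.9, 322.7 and 543.3 lay on both sides of Control.

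Divided by transcript length, DDX5 had a signal per kb of 5031 ± 217 (SD, n = 3) in Control and 5800 ± 591 in DCC-2036. DDX39B followed with 2612 ± 82.5 and 2575 ± 57.6, and then DDX21 with 1944 ± 67.8 and 3016 ± 469. In Control, DDX21 was below DDX39B, DDX39A (2500 ± 95.0) and DHX9 (2142 ± 36.5) per kb. In DCC-2036, the mean of DDX21 was above that of DDX39B by less than the SD of DDX21, and above that of DDX39A at 1590 ± 96.2. Lengths were found for 49 of the 50 tested members.

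The 4 helicases of innate RNA sensing were low in these cells. DDX60, an interferon-induced antiviral factor, lies at chr4:168216293-168318807 on the minus strand. It had values of 143.1, 124.7 and 100.1 in Control against 25.9, 21.7 and 20.1 in DCC-2036. The highest DCC-2036 value was far under the lowest Control value, and the DCC-2036 mean was 18.4% of the Control mean. The log2 fold change of -2.38 ± 0.17 (adjusted p = 0.000254) was the lowest of the tested members. Its relative DDX60L lies 37927 bases away on the same strand. DDX60L fell as well, from 306.6 ± 47.7 (SD, n = 3) to 160.7 ± 26.8, with a log2 fold change of -0.93 ± 0.17 (adjusted p = 0.00434). That call was lost without Control replicate 1 or 2 or DCC-2036 replicate 2 (adjusted p = 0.0182, 0.0193 and 0.0192). It was also lost without a filter on low values and with a replicate block.

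DHX58, a regulator of the RNA sensors, lies at chr17:42101404-42112733 on the minus strand and was near the filter. Its values were 8.5, 7.9 and 8.3 in Control against 14.6, 16.3 and 26.5 in DCC-2036. All DCC-2036 values were higher, but no Control value reached 10. A gene that passes the filter in this way had to be higher in the group that carried it. Its log2 fold change of 1.08 ± 0.22 is thus given without a p-value, and its place among the higher members is not a finding. It lost the call without a filter on low values, with a replicate block, with a variance trend and without Control replicate 1, 2 or 3, and with any 1 of the DCC-2036 libraries left out it did not pass the filter. DDX58, the sensor also called RIG-I, overlapped, with 248.3, 231.8 and 216.2 in Control against 247.5, 163.5 and 112.5 in DCC-2036.

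Since some of these genes are induced by interferon, 9 interferon-induced genes were placed beside them, of which 6 were tested. ISG15 rose by 0.95 ± 0.17 on the log2 scale (adjusted p = 0.00356) and IRF7 by 0.80 ± 0.15 (adjusted p = 0.00469). Both lost the call without Control replicate 1, 2 or 3 or DCC-2036 replicate 2, with adjusted p up to 0.0154 and 0.0212. Not called were IFI6, without overlap and above Control at 0.58 (adjusted p = 0.0288), IFIT2 and IFIT3, without overlap and below Control at -0.46 and -0.61 (adjusted p = 0.0454 and 0.102), and IFIT1, with overlap. MX1, OAS1 and IFI44L were under the filter. DDX60 and DDX60L thus went down in libraries where ISG15 and IRF7 were higher, and the relation between them was not tested. The list is not a full set of such genes, and no direction of the interferon response as a whole is drawn from it.

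Promoter sequences are shown for DDX60 and DDX60L, which fell together, and for DDX24 and DDX21, which rose. They are the 150 bases before the annotated start, from RefSeq (GRCh38.p14), in lower case and written 5′ to 3′ on the strand of the gene. Capitals mark matches on either strand to GAAANNGAAA, the core of the interferon response element, to GGGCGG, the GC box, and to CACGTG, the E-box. The windows are chr4:168318753-168318902 (minus) for DDX60, chr4:168480493-168480642 (minus) for DDX60L, chr14:94081203-94081352 (minus) for DDX24, and chr10:68956020-68956169 and chr10:68956497-68956646 (both plus) for the outer and the inner start of DDX21.
DDX60: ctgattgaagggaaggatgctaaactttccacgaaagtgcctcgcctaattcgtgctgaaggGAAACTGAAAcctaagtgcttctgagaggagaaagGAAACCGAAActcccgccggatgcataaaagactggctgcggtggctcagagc
DDX60L: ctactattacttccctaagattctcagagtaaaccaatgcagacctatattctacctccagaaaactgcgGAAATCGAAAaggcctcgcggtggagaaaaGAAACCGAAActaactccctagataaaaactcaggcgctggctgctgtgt
DDX24: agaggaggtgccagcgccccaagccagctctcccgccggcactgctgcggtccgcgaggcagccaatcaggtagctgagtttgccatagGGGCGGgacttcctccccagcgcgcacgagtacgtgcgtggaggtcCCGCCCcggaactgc
DDX21 outer start: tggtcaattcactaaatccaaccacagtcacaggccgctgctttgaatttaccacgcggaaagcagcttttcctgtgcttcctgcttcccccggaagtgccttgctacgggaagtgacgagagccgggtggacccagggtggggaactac
DDX21 inner start: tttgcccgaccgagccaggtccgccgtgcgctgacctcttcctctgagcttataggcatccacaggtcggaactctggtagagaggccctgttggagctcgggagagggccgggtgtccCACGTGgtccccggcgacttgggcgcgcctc

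In these windows, DDX60 and DDX60L each held 2 matches to the interferon response core, DDX24 held 2 GC boxes, and the inner start of DDX21 held 1 E-box. Over the full 300 bases listed per start, 50 of the 55 members were matched to 67 starts, and DDX18, DDX49, DDX52, DHX33 and DHX58 had no entry. The interferon response core was found at 3 of the 67 starts, 4.48%, those of DDX60, DDX60L and DHX15, and at 3.57% of all 35116 starts. The GC box was found at 56.7% of the member starts and 45% of all starts. The E-box was found at 14.9% and 7.26%, and DDX21 and DDX54 were the higher members among its 10 genes, beside the lower members DHX32 and DHX34. A match is a run of letters and not a measured binding site.

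Outside the larger groups, DDX11, a DNA helicase of sister chromatid cohesion, fell from 1331 ± 43.1 (SD, n = 3) to 719.0 ± 100.1, which is -0.90 ± 0.13 on the log2 scale (adjusted p = 0.00165). Its adjusted p was 0.01 without Control replicate 3. Near-identical copies of DDX11 exist in the genome, and reads may have been split between them. Of the 4 members without a role group, DHX32 fell by 1.02 ± 0.23 on the log2 scale (adjusted p = 0.00948), the closest to the limit among the called members. Without Control replicate 1, 2 or 3 or DCC-2036 replicate 2 its adjusted p was 0.0343, 0.0331, 0.0286 and 0.0292. The call was also lost with libraries scaled to equal totals, without a filter on low values, with a pseudocount of 0.1, with a replicate block and with sums over transcripts. DHX40, DHX57 and DDX59 had -0.31, -0.70 and -0.28 and were not called. The germ line helicases DDX4, DDX25, DDX43 and DDX53 did not pass the filter. DDX25 reached 7.6 in 1 Control library, and the others did not exceed 0.9 in any library.

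Paralogs were then compared within each library, as the ratio of value + 1, which depends little on the scaling of columns, and most for low values such as those of DDX60. In all, 6 ratios were computed, 5 of paralogs and 1 of transcripts. With 3 libraries against 3, the smallest exact two-sided permutation p is 0.1, and Benjamini-Hochberg adjustment over the 6 cannot lower it, so that none could pass 0.05.

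The ratio of DDX17 to DDX5 was 0.354, 0.319 and 0.314 in Control against 0.187, 0.127 and 0.0743 in DCC-2036. The groups were apart, and the mean log2 ratio differed by -1.44 (exact permutation p = 0.1, adjusted 0.12). The ratio of DDX21 to DDX50 was 18, 17.6 and 18.8 in Control against 28, 31.3 and 35.4 in DCC-2036, a difference of 0.79 in log2 ratio without overlap (exact p = 0.1, adjusted 0.12). In both pairs, each DCC-2036 library lay on the same side of all Control libraries.

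The ratio of DDX39A to DDX39B was 0.648, 0.69 and 0.643 in Control against 0.446, 0.413 and 0.418 in DCC-2036, a difference of -0.63 (exact p = 0.1, adjusted 0.12). The ratio of DDX60 to DDX60L was 0.411, 0.399 and 0.394 in Control against 0.185, 0.154 and 0.109 in DCC-2036, a difference of -1.46 (exact p = 0.1, adjusted 0.12). Both pairs were without overlap, and DDX60 fell further than DDX60L in each library. The ratio of DDX19A to DDX19B was 2.72, 2.64 and 2.69 in Control against 2.68, 2.23 and 2.01 in DCC-2036, with overlap (exact p = 0.2).

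**Figure D2:**
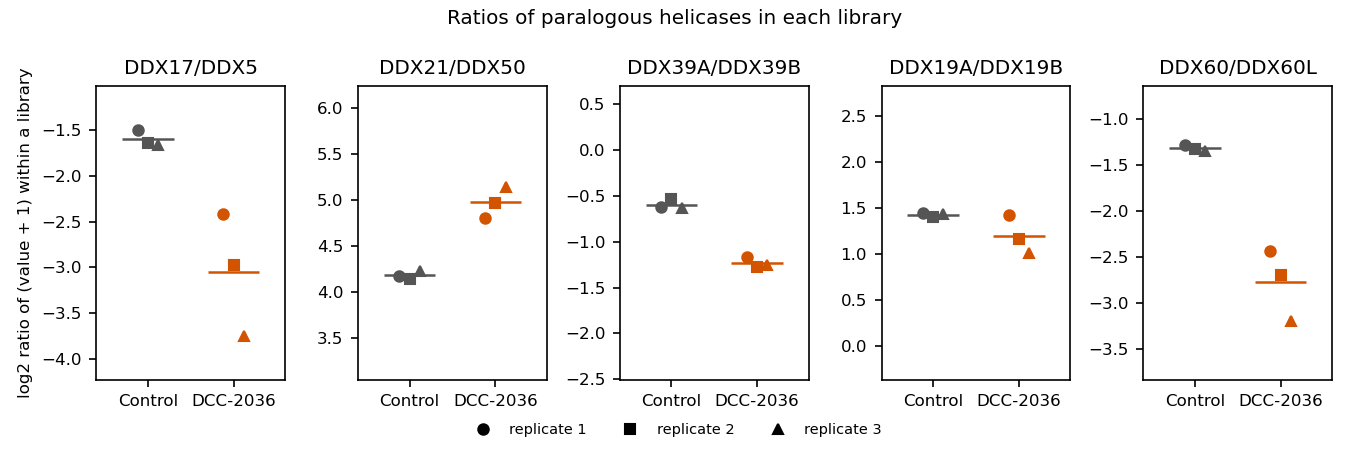
Log2 ratio of value + 1 between paralogous helicases within each library (y axis, the same span in each panel), for Control (grey) and DCC-2036 (orange), n = 3 libraries per group, with a line at each group mean. Of the 5 pairs, only DDX19A/DDX19B overlaps between groups, and DDX17/DDX5 is the most spread in DCC-2036, with an SD of 0.67.

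The transcripts of a gene share reads and are not independent. Of 28 tested members with more than 1 tested transcript, 25 had log2 fold changes within 0.1 of each other across transcripts. The exceptions were DDX59, DDX60L and DDX31. For DDX60L the transcripts ran from -0.97 to -0.64, and the one at -0.64 was not called as a separate entry (limma, adjusted p = 0.0244). For DDX31 the transcripts ran from -0.23 to 0.71. The shortest DDX31 transcript had values of 138.1, 124.3 and 182.6 in Control against 238.5, 234.9 and 246.2 in DCC-2036, while the kept transcript had 761.5, 739.1 and 869.9 and then 803.6, 822.3 and 646.7. The short form was thus higher in all DCC-2036 libraries, and the kept form overlapped. With all transcripts tested as separate entries, where 42.2% were called, the short form had a log2 fold change of 0.71 ± 0.16 (adjusted p = 0.00818). Its ratio to the kept form differed by 0.77 in log2 (exact permutation p = 0.1, adjusted 0.12). Of its 1333 bases, 367 lie in exons of GTF3C4 on the opposite strand. GTF3C4 had 0.39 on the log2 scale, not called (adjusted p = 0.0208), and its part in the value of the short form was not tested.

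The DCC-2036 libraries differed more among themselves than the Control libraries. The median SD of log2(value + 1) over the 50 members was 0.185 in DCC-2036 and 0.056 in Control, and over all genes tested it was 0.228 and 0.101. The DCC-2036 SD was the larger in 45 of 50 members, 90%, and in 77.3% of all genes. DCC-2036 replicate 3 was the farthest from the Control mean in 36 members, 72%, and in 60.4% of all genes. DCC-2036 replicate 2 lay between replicates 1 and 3 in 39 members, 78%, and in 67.6% of all genes. Among tested members, DDX28 and DHX57 had the widest SDs in DCC-2036, of 0.68 each, and replicate 3 was the highest in DDX28 and the lowest in DHX57. DDX17, DHX34, DHX37 and DDX23 had SDs of 0.53, 0.47, 0.59 and 0.57, and replicate 3 was the lowest in each. DDX56 and DHX38 were among the tightest, with SDs of 0.03 and 0.06.

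**Figure D3:**
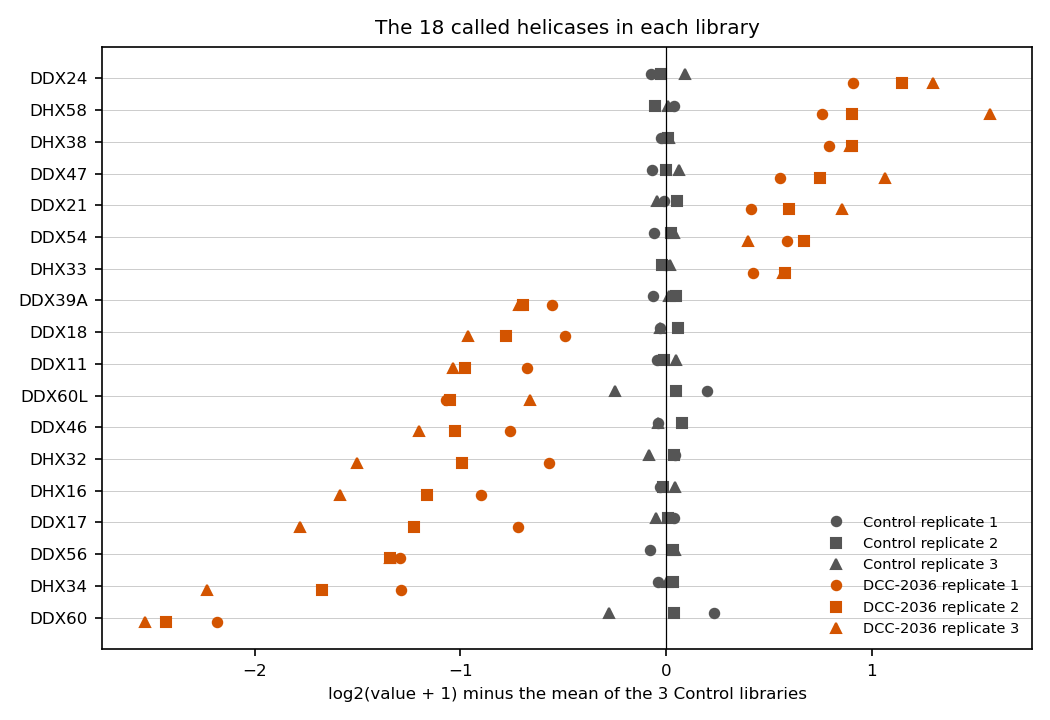
Log2(value + 1) minus the mean of the 3 Control libraries (x axis) for the 18 called helicases (rows), with 1 point for each library, grey for Control and orange for DCC-2036, and a symbol for each replicate. No grey and orange points overlap within a row, which is no further result, since the rows were chosen by the call on these libraries. For DHX58 the filter fixed the side. DCC-2036 replicate 3 (triangles) is often but not always the outermost.

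Helicases with other names and known partners of the members were examined in the same fit, in which 22 of them were called. Without Control replicate 1, 2 or 3 or DCC-2036 replicate 2, 7, 5, 5 and 6 of the helicases and partners together were called, while the share over all genes tested went from 41.9% to 21.1, 20, 20 and 21%. Of the 22, SKIV2L, HELZ2, ASCC3, GEMIN4 and FAM98A were called with each library left out, and the others had adjusted p up to 0.043. Of 21 other RNA helicases in the table, 17 were tested, 3 higher and 5 lower, 47.1%, with a median log2 fold change of -0.30. The lowest was HELZ2, an interferon-induced coactivator, with 1135, 996.4 and 1041 in Control against 330.6, 255.5 and 239.7 in DCC-2036. HELZ2 values of the groups were far apart, with a log2 fold change of -1.95 ± 0.15 (adjusted p = 0.000287). Also lower were SKIV2L, ASCC3, MOV10 and YTHDC2, and the higher helicases were SUPV3L1, HELZ and SNRNP200, with log2 fold changes of 0.83, 0.51 and 0.44. DICER1, the microRNA processing enzyme, had 0.93 ± 0.26 and was not called (adjusted p = 0.0194). SNRNP200, the helicase that unwinds the spliceosomal RNA pair before DHX16 acts, thus rose where DHX16 fell.

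Of 34 partner genes in the table, all were tested, 9 higher and 5 lower, 41.2%, with a median of 0.06. Over all genes tested, 41.9% were called, 19.2% higher and 22.7% lower. GPKOW, the partner of DHX16 in the spliceosome, had values of 604.4, 760.6 and 733.6 in Control against 305.6, 210.1 and 151.2 in DCC-2036. It fell without overlap by 1.70 ± 0.26 on the log2 scale (adjusted p = 0.00217), as DHX16 itself did, and was at 0.0107 and 0.0113 without Control replicate 2 and 3. GPATCH1, the partner of DHX35, fell by 1.42 ± 0.28 (adjusted p = 0.00565), whereas DHX35 was not called.

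Of the 6 partners of DHX15, which switch this helicase on at different sites, RBM17, CMTR1 and NKRF were higher and 0 were lower by limma, against 5 and 0 at an unadjusted p under 0.05, while DHX15 had -0.12. Over all genes tested, 66.6% had such an unadjusted p, 30.5% higher and 36.1% lower, so that with 6 genes no more is drawn from this count. The lowest partner was GEMIN4, which binds DDX20 in the complex that assembles spliceosomal particles, at 3138, 3149 and 3242 in Control against 1036, 820.4 and 648.2 in DCC-2036. It fell by 1.95 ± 0.18 on the log2 scale (adjusted p = 0.000443). In the same complex SMN1 rose by 0.89 ± 0.17 (adjusted p = 0.00535), and reads of SMN1 cannot be told apart from those of its near-identical copy SMN2. GEMIN2 and GEMIN5 were not called.

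The highest partner was FAM98A, which joins DDX1 in the tRNA ligase complex, with 1409, 1486 and 1506 in Control against 3223, 3596 and 4191 in DCC-2036. It rose without overlap by 1.31 ± 0.13 (adjusted p = 0.000492), and FAM98B of the same complex by 0.46 ± 0.11 (adjusted p = 0.00972). MAVS, the adaptor to which DDX58 signals, fell by 1.51 ± 0.29 (adjusted p = 0.00475). Of the partners of DDX6, EIF4ENIF1 and PATL1 rose and LSM14B fell. Of those of DDX39B, SARNP rose, and of the 5 partners of DDX19B, DHX30 and DHX37, none was called by limma, although GRSF1 and FASTKD2, which bind DHX30, had an unadjusted p under 0.05.

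**Figure D4:**
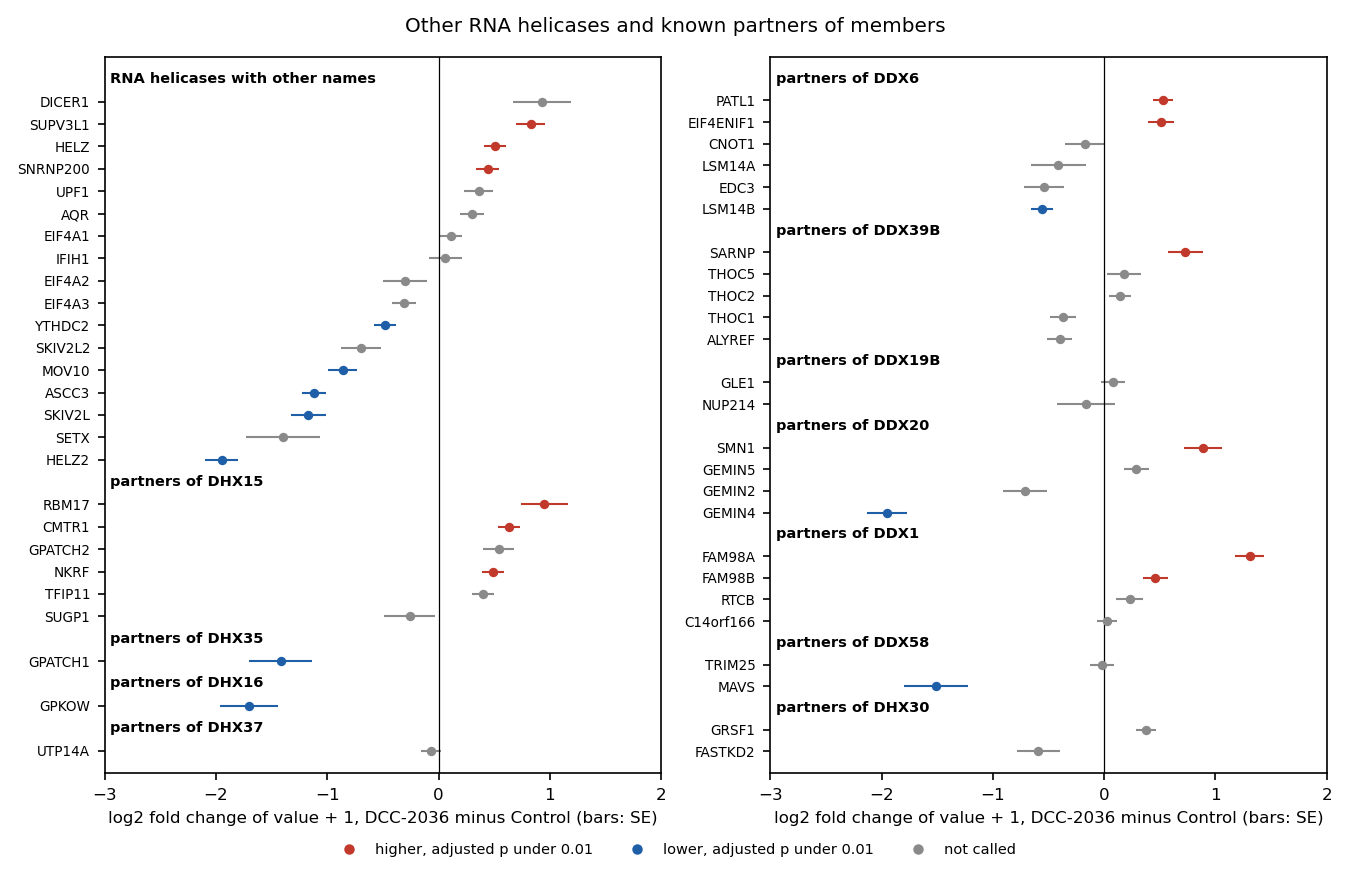
Log2 fold change of value + 1 (x axis, DCC-2036 minus Control, n = 3 libraries per group) with the SE of the limma fit, for 17 other RNA helicases and 34 partners grouped by the member they bind. Red points were called higher and blue points lower, and the values run from -1.95 for GEMIN4 and HELZ2 to 1.31 for FAM98A.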

How the data were processed

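RNA was measured in 3 Control and 3 DCC-2036 libraries, grouped by their titles. The authors deposited 1 table with a signal per RefSeq transcript and library, adjusted between libraries and not in whole numbers. The column totals still differed, from 38997229 in Control replicate 1 to 48023306 in DCC-2036 replicate 3. The aligner, the counting and the build are not given in the sources used here. The deposited log2 fold change, p-value and q-value of the authors' own comparison were not used, and 0 other columns of values per sample were present. Depth per library is unknown, which limits what can be said of low genes.

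The members, the gene lists and the rule for named genes were chosen with earlier results of these data known. Values in each library are given for DDX21 and DDX50, the called members without overlap that had the 5 highest and the 5 lowest log2 fold changes, and the member of highest level. Of the other lists, partners of those members and the highest and lowest of each list were to be named. Other genes named or given with library values, transcripts and motifs included, were chosen after their values were seen. Roles, partners and marker lists are textbook assignments. After the results were known, 1 gene of the interferon-induced list set in the design was taken out for a reason unrelated to its values, and it is not reported here. No count of calls and no sum of that list is therefore given.

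The transcript of highest mean was kept per symbol. The test was limma 3.58.1 in R 4.3.3 on log2(value + 1), two-sided, without covariates, in genes with at least 10 in at least 3 libraries, with Benjamini-Hochberg adjustment over all genes tested and a limit of 0.01. The code was tested on simulated data. Python 3.11.15 was used for exact permutation tests (scipy 1.17.1), tables (pandas 2.3.3, numpy 2.4.6) and plots (matplotlib 3.10.9). Locations, lengths and overlaps came from GENCODE 29. Alternatives were 3 scalings, other filters, a pseudocount of 0.1, a limit of 0.05, sums over transcripts, a variance trend, a replicate block and each library left out. Testing all transcripts as separate entries was added after the data had been seen.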

Additional observations from a re-analysis of the deposited data

How the results depend on the processing

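Over 16 alternatives, 6 of the 18 called helicases kept their call and direction, 12 lost the call under at least 1, and 14 of the 32 members that were not called were called under at least 1. The looser limit of 0.05 is 1 of the 16 and could only add calls. DDX10, DDX20, DHX36 and DHX40 were called under that limit alone. In place of 7 higher, 11 lower, a median of -0.24 and 22 other helicases and partners called, libraries scaled to equal totals gave 4 higher and a median of -0.43. Without a filter on low values, 2 were higher, 7 lower and 12 others called, with 16.7% of the members and 23.4% of all genes called. With a limit of 0.05, the counts were 13, 18 and 36, and the shares 62 and 62.2%. Leaving out each library in turn gave 2 to 7 higher, 5 to 15 lower, a median of -0.30 to -0.18 and 5 to 27 others. The share called over all genes ran from 20 to 49.3% in these fits. The cause was not tested. Deviations of same-numbered libraries correlated at 0.081, -0.035 and -0.003. With 3 libraries per group, these values cannot settle whether same-numbered libraries were paired. The fit with a replicate block gave 2 higher, 6 lower and 7 others called, and 24.4% of all genes. Testing all transcripts as separate entries, chosen after seeing the data, gave 7 and 11. Signs turned in 6 members that were not called. DDX19B had 0.0749 with median of ratios and 0.0137 with upper quartile, DDX31 had 0.0161 and DDX39B 0.0608 with median of ratios, DDX39B had 0.0138 with sums over transcripts, and DHX29 had -0.0600 and DHX8 -0.1186 with equal totals. With single libraries left out, DDX19B ran from -0.05 to 0.0507, DDX28 from -0.66 to 0.0131, DDX31 from -0.13 to 0.0445 and DDX39B from -0.04 to 0.0049. Depth is unknown, so that counting error in low members such as DHX58 and DDX60 could not be assessed.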

Other observations

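Genes whose exons overlap those of a called or tested helicase by at least 300 bases on the opposite strand, beside those given with the results, gave the following values, since the library kit does not mark strand. DUS2, which overlaps DDX28, stood at 426.8, 454.8 and 479.6 in Control and at 236.1, 181.7 and 88.2 in DCC-2036, a log2 fold change of -1.53 ± 0.35 (limma, adjusted p = 0.00909). PMFBP1, which overlaps DHX38, was at 17.8, 14.6 and 33.5 in Control and listed at 0 in all 3 DCC-2036 libraries. It passed the filter only through its Control values and had to be lower to be tested, so no p-value is given for it. EIF2B1, which overlaps DDX55, had a log2 fold change of 0.38, BCCIP, which overlaps DHX32, of 0.26, and CEP95, which overlaps DDX5, of -0.22, and none was called (adjusted p = 0.0125, 0.0743 and 0.129). In all, 12 tested helicases had such an overlap with a protein-coding gene on either strand.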
